A study of Danio rerio with 4 samples.

Results

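Radial glia with transcripts of cyp26c1, lipg and grm3 were described in 4 single-cell libraries of the adult zebrafish telencephalon. The cells were chosen by a gate: at least 300 genes detected, at most 25% mitochondrial UMIs, at least 0.5% of UMIs from fabp7a, and at least 1 UMI each of 2 or more of cyp26c1, lipg and grm3. This gave 508 cells, called cyp26c1/lipg/grm3 cells here, among 4193 cells that met the fabp7a limit and 4857 barcodes in all. The remaining 3685 cells are called other fabp7a cells. UMIs of these 4 genes (fabp7a ENSDARG00000007697, cyp26c1 ENSDARG00000056029, lipg ENSDARG00000031044, grm3 ENSDARG00000031712) chose the cells, so their levels are given as a description, with no test.

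There was 1 library for each condition. For each, 7 telencephalons of fish aged 3 to 7 months were pooled and 9000 to 20000 dTomato-positive cells were sorted. All fish carried Tg[GFAP:dTomato]nns17Tg, in which the GFAP promoter labels radial glia. The injured MTZ and uninjured MTZ libraries came from fish that also carried Tg[mpeg1:NTR-EYFP]w202, which puts nitroreductase into microglia and macrophages, and that were given metronidazole (MTZ), a drug that kills cells with nitroreductase. The injured and uninjured libraries came from fish with the reporter alone. MTZ, the second transgene and the pool of fish cannot be told apart. The injured MTZ and injured fish were examined 3 days after a stab lesion. Groups were taken from the sample titles, since a treatment label gives a stab lesion for all 4 libraries. The gate was met by 96 cells of the injured MTZ library (630745 UMIs), 273 of the uninjured MTZ library (1067476 UMIs), 57 of the injured library (309629 UMIs) and 82 of the uninjured library (468722 UMIs). Between libraries, 11 barcodes were shared, 1 of them in a cyp26c1/lipg/grm3 cell.

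Radial glia line the ventricle of the zebrafish telencephalon, serve as its neural stem cells and do much of the work of astrocytes, and most of them are quiescent in the uninjured adult. fabp7a encodes a fatty acid binding protein of these cells. cyp26c1 encodes a cytochrome P450 that breaks down retinoic acid, lipg an endothelial lipase that cleaves lipoprotein phospholipids, and grm3 a metabotropic glutamate receptor that mammalian astrocytes express. Cells make cholesterol from acetyl-CoA through mevalonate and squalene. The transcription factor SREBP2, from srebf2, turns on most genes of that route and the LDL receptor when membrane sterol is low, and insig1 holds it back.

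The cells held the transcripts that define radial glia. All 23 genes of the radial glia identity list were detected in them, with a summed level of 54413 CPM (a gene's UMIs per 1000000 UMIs of the class) in the injured MTZ library, 69778 CPM in the uninjured MTZ library, 57708 CPM in the injured library and 69613 CPM in the uninjured library. In the other fabp7a cells the sums were 52124 CPM in the injured MTZ library, 64873 CPM in the uninjured MTZ library, 42850 CPM in the injured library and 71233 CPM in the uninjured library. By these markers both classes were radial glia. The 20 microglia markers summed to between 85.3 and 139 CPM in the cyp26c1/lipg/grm3 cells, against 149.6 to 411 CPM in the other fabp7a cells, with 5 of the 20 at 0 UMIs, mpeg1.1 among them. The 15 endothelial markers summed to 8.53 to 64.6 CPM, against 13.7 to 35.3 CPM, and the 21 mature neuron markers to 102 to 366 CPM, against 135 to 203 CPM. The 13 mural cell and fibroblast markers summed to 1208 CPM in the cyp26c1/lipg/grm3 cells against 969 CPM in the other fabp7a cells of the injured MTZ library, 1163 against 1161 CPM in the uninjured MTZ library, 1218 against 789 CPM in the injured library and 1368 against 1027 CPM in the uninjured library, with 4 of the 13 at 0 UMIs. Most of this sum was notch3, a receptor gene that the Notch list holds too, with 1015 to 1092 CPM in the cyp26c1/lipg/grm3 cells against 584 to 891 CPM in the other fabp7a cells. Among cells that should lack these genes, the gate was met by 0 of 87 cells with little fabp7a and microglia markers, which allows a share of up to 3.45% by a limit of 3 counts and 4.15% by the exact Clopper-Pearson bound, and by 1 of 199 such cells with neuron markers (0.503%). Those cells had median depths of 2281 and 3296 UMIs, against 4448.5 UMIs in the cyp26c1/lipg/grm3 cells.

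Among fabp7a cells the gate was met by 7.41% in the injured MTZ library (95% exact Clopper-Pearson interval 6.04 to 8.97%), against 21.8% (19.5 to 24.2%) in the uninjured MTZ library. It was met by 5.94% (4.53 to 7.62%) in the injured library, against 12.0% (9.66 to 14.7%) in the uninjured library. The share was thus lower in the injured library of each pair, and the intervals did not overlap. Each condition was 1 library and the effect of injury on this share was not tested; this and every other interval covers counting error only. Shares of sorted cells do not give cell numbers in the brain. In whole libraries, fewer such cells and fewer transcripts per cell cannot be told apart.

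The gate depends on depth. Median UMIs per cell in the cyp26c1/lipg/grm3 and other fabp7a cells were 5906 and 4002 in the injured MTZ library, 3921 and 2156 in the uninjured MTZ library, 5337 and 3822 in the injured library, and 5081.5 and 3170 in the uninjured library. Each cell was therefore thinned to 2000 UMIs. This left out 4 cyp26c1/lipg/grm3 cells and 256 other fabp7a cells of the injured MTZ library, 34 and 472 of the uninjured MTZ library, 2 and 215 of the injured library, and 5 and 178 of the uninjured library. The shares were then 2.89% (1.96 to 4.1%) in the injured MTZ library and 16.7% (14.1 to 19.6%) in the uninjured MTZ library. They were 2.95% (1.86 to 4.44%) in the injured library, against 9.44% (7.02 to 12.4%) in the uninjured library. Within each pair the injured library was again the lower one, and the intervals did not overlap. The median share of ribosomal protein UMIs was 6.59% in the cyp26c1/lipg/grm3 cells of the injured library against 14.1% in its other fabp7a cells, and 7.09% against 9.63% in the injured MTZ, 8.48% against 7.98% in the uninjured MTZ and 6.68% against 7.60% in the uninjured library. The part of this in the differences given next was not tested.

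**Figure D1:**
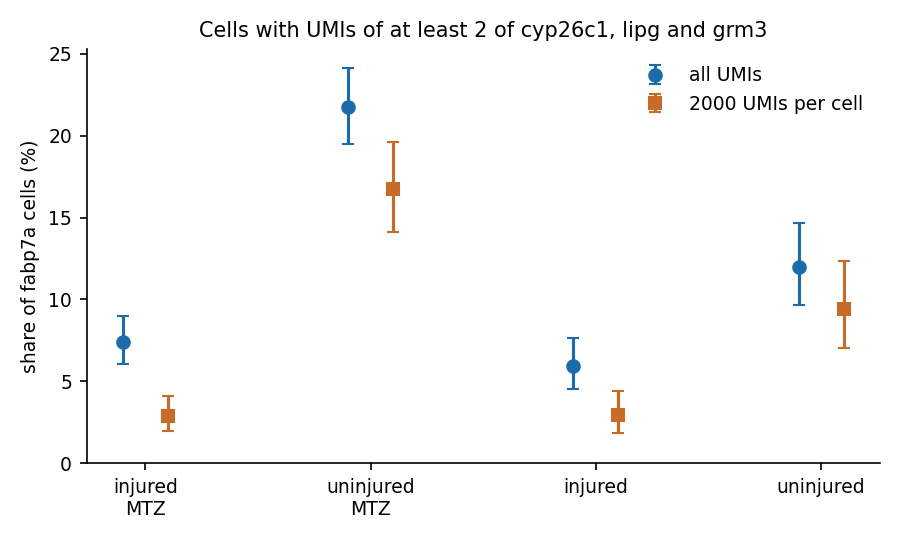
Share of fabp7a cells, in percent, with UMIs of at least 2 of cyp26c1, lipg and grm3, by library, with all UMIs (circles) and at 2000 UMIs per cell (squares); bars are 95% exact binomial intervals for counting error. The injured MTZ and injured libraries stood at 7.41% and 5.94% with all UMIs, below the uninjured MTZ and uninjured libraries at 21.8% and 12.0%.

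lipg was the most often detected of the gate genes, with UMIs in 487 of the 508 cells, against 353 cells with grm3 and 233 with cyp26c1. lipg with grm3 but not cyp26c1 made up 275 cells (54.1%), lipg with cyp26c1 but not grm3 155 cells (30.5%), cyp26c1 with grm3 but not lipg 21 cells, and all 3 genes 57 cells (11.2%). The mix differed between libraries. The pair of lipg and cyp26c1 made up 44.8% of the cells in the injured MTZ library and 22.0% in the uninjured MTZ library, and 29.8% in the injured library and 42.7% in the uninjured library. Among fabp7a cells at 2000 UMIs, cyp26c1 and lipg were found together in 1.44% of cells of the injured MTZ library, where the product of their separate shares is 1.13%. They were together in 6.02% of the uninjured MTZ library (product 4.71%), 1.34% of the injured library (0.675%) and 6.63% of the uninjured library (2.92%). lipg and grm3 were together in 1.15% of the injured MTZ library (product 0.788%), 11.4% of the uninjured MTZ library (8.91%), 1.34% of the injured library (0.713%) and 3.61% of the uninjured library (2.02%). Both pairs were thus above the product in each library, with no test made.

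cyp26c1 had 238 CPM in the cyp26c1/lipg/grm3 cells of the injured MTZ library, 189 CPM in those of the uninjured MTZ library, 297 CPM in those of the injured library and 512 CPM in those of the uninjured library. lipg had 553 CPM in the injured MTZ library and 1125 CPM in the uninjured MTZ library, and 610 CPM in the injured library and 1041 CPM in the uninjured library. grm3 had 92.0 and 271 CPM in the injured MTZ and uninjured MTZ libraries, and 194 and 124 CPM in the injured and uninjured libraries. lipg also stood at 139 CPM in the other fabp7a cells of the injured MTZ library, 539 CPM in those of the uninjured MTZ library, 90.4 CPM in those of the injured library and 339 CPM in those of the uninjured library. The lipase was therefore lower in the injured libraries on either side of the gate, whereas grm3 was not lower in the injured library without MTZ. fabp7a itself had 20767 to 43318 CPM in the cyp26c1/lipg/grm3 cells and 23113 to 37933 CPM in the other fabp7a cells.

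The cyp26c1/lipg/grm3 cells were then compared with the other fabp7a cells of the same libraries, over UMIs summed per library and class (8 sums) and with the 4 gate genes left out. Higher levels in the cyp26c1/lipg/grm3 cells were found for enzymes of cholesterol synthesis, the LDL receptor and lipoprotein lipase. Lower levels were found for 9 of 16 tested retinoid-handling genes, some interferon-response genes, the replication genes pcna and rrm2, and the lypd6, asic4a and itih1 genes. edgeR's quasi-likelihood test with library as a block and Benjamini-Hochberg adjustment called 300 of 9463 genes higher (3.17%) and 307 lower (3.24%) at adjusted p under 0.05, and 275 and 283 of them had the same sign in all 4 libraries. With other fabp7a cells matched to each cell on depth, 139 genes were higher and 154 lower, of which 130 and 129 were called in both fits. Without the uninjured library, 113 genes were higher.

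Cholesterol synthesis transcripts were higher in the cyp26c1/lipg/grm3 cells of every library. Of the 24 genes listed, 23 were in the files and 22 were tested (sqleb had no UMI), and 14 of the 22 (63.6%) were higher and 0 lower, against 3.17% and 3.24% of all genes; the log2 differences of all 22 were above 0. Their median was 0.94, against 0.00 over all genes. The list was chosen with earlier results of these cells known, so the count describes it and is not a test of it. Summed over the 23 genes, the level was 1776 CPM in the cyp26c1/lipg/grm3 cells against 758 CPM in the other fabp7a cells of the injured MTZ library, and 3395 against 2136 CPM in the uninjured MTZ library. It was 827 against 574 CPM in the injured library and 4122 against 1824 CPM in the uninjured library.

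In the mevalonate segment, hmgcs1, which makes HMG-CoA, had 271 CPM in the cyp26c1/lipg/grm3 cells against 69.1 CPM in the other fabp7a cells of the injured MTZ library, 435 against 279 CPM in the uninjured MTZ library, 51.7 against 45.3 CPM in the injured library and 595 against 204 CPM in the uninjured library. It was higher in every library, least so in the injured one, with a log2 difference of 1.25 ± 0.20 (SE, 4 libraries; edgeR quasi-likelihood, Benjamini-Hochberg adjusted p = 5.67e-05). hmgcra, the HMG-CoA reductase that sets the rate of the route, had a log2 difference of 1.09 (adjusted p = 3.01e-05, same edgeR fit). pmvk, idi1 and fdps, which carry mevalonate on to farnesyl diphosphate, were higher by 1.2, 0.90 and 0.70 on the log2 scale, though fdps had 67.8 CPM in the cyp26c1/lipg/grm3 cells of the injured library against 76.1 CPM in its other fabp7a cells. The thiolase gene acat2 (0.48, adjusted p = 0.0601), fdft1 (1.09, adjusted p = 0.085), mvda, mvk, ggps1 and hmgcrb did not pass the edgeR test. hmgcrb was at 0.05.

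In the segment after squalene, 9 of 11 tested genes were higher. cyp51, the lanosterol demethylase, had 113 CPM in the cyp26c1/lipg/grm3 cells against 43.7 CPM in the other fabp7a cells of the injured MTZ library, 243 against 146 CPM in the uninjured MTZ library, 67.8 against 35.5 CPM in the injured library and 405 against 167 CPM in the uninjured library. The cells were above the others in all 4 libraries, with a log2 difference of 1.13 ± 0.16 (SE; edgeR adjusted p = 1.27e-05). msmo1, a sterol oxidase, differed by 1.15 (adjusted p = 6.27e-06, edgeR) and sc5d, a sterol desaturase, by 1.18 (adjusted p = 6.27e-06). nsdhl, ebp, hsd17b7, dhcr7 and the squalene epoxidase gene sqlea were higher by 0.91 to 1.21. nsdhl, sqlea and ebp had the opposite sign in the injured library: nsdhl had 6.46 CPM in its cyp26c1/lipg/grm3 cells against 7.16 CPM in its other fabp7a cells. lss (0.63) and tm7sf2 (0.52) did not pass. Without the uninjured library, pmvk, fdps, sqlea, nsdhl and dhcr7 did not pass either.

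**Figure D2:**
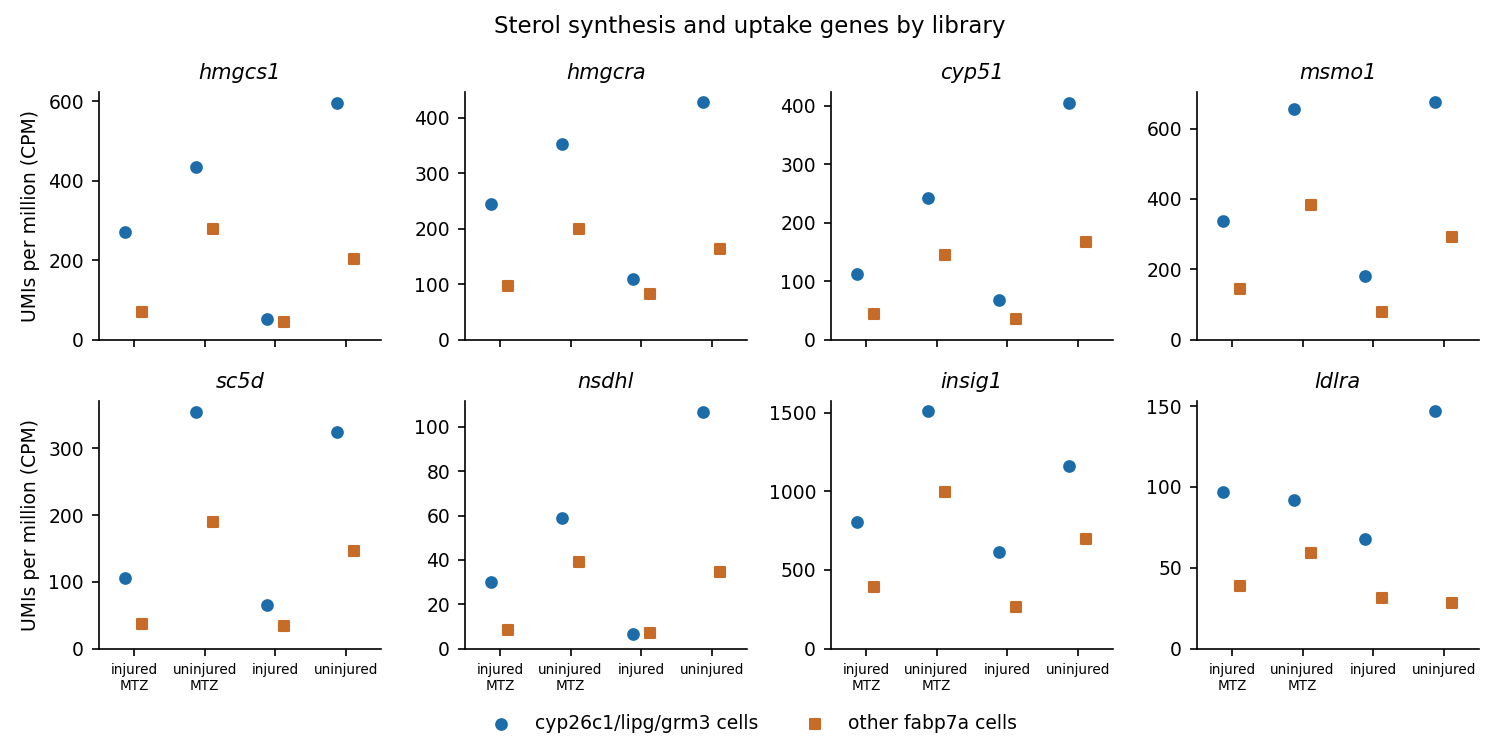
Level, in CPM, of 8 sterol synthesis, feedback and uptake genes in the cyp26c1/lipg/grm3 cells (circles) and the other fabp7a cells (squares) of each library; a point is 1 sum over cells. The gap between the classes was narrow in the injured library for hmgcs1 (51.7 against 45.3 CPM) and wide in the uninjured library (595 against 204 CPM).

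Of 9 tested genes of sterol feedback and uptake, 3 were higher and 1 lower. ldlra, the LDL receptor, was at 96.7 CPM in the cyp26c1/lipg/grm3 cells against 38.7 CPM in the other fabp7a cells of the injured MTZ library, 91.8 against 59.3 CPM in the uninjured MTZ library, 67.8 against 31.0 CPM in the injured library and 147 against 28.4 CPM in the uninjured library. Every library showed it higher, with a log2 difference of 1.38 (edgeR adjusted p = 3.4e-05). insig1 differed by 0.94 (adjusted p = 0.000192, edgeR) and srebf2 by 0.76 (adjusted p = 0.00492). mylipa, a ubiquitin ligase gene whose mammalian counterpart marks LDL receptors for degradation, was lower by a log2 difference of -1.97 (adjusted p = 0.00857, edgeR). With depth matched, 6 genes of this list were tested, and 3 (srebf2, insig1 and ldlra) were higher and 0 lower. Among 6 tested genes of sterol efflux and apolipoproteins, 0 were higher and 3 lower (apoeb -0.97, apoc1 -2.89, clu -0.86), and apoc1 is also a microglia marker. DESeq2 called apoc1 alone of these, the fit with depth matched apoeb alone, and at 2000 UMIs per cell 0 of 4 tested passed.

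The sterol sum also varied with the number of gate genes a cell held, below the gate as well. At 2000 UMIs per cell, the summed sterol synthesis UMIs averaged 4.43 in cells with 2 or 3 gate genes, 3.2 in cells with 1 and 1.14 in cells with none in the injured MTZ library. In the uninjured MTZ library they averaged 6.67 with 2 or 3 gate genes, 6.18 with 1 and 3.07 with none. In the injured library they averaged 1.32 with 2 or 3, 2.29 with 1 and 0.99 with none, and in the uninjured library 8.83 with 2 or 3, 6.51 with 1 and 2.81 with none. Cells with 1 gate gene were above cells with none in all 4 libraries, and the cells that met the gate were above those in all but the injured library, where 22 cells remained at this depth. With all UMIs, 1199 cells just outside the gate, with exactly 1 gate gene, had 1876 CPM of these transcripts, and 451 cells just inside it, with exactly 2, had 2780 CPM; these sums pool libraries in different shares and are no comparison at an equal mix of libraries. Against fabp7a cells with no gate UMI, the median log2 difference was 1.79.

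By library, the median log2 difference of the 22 sterol genes was 1.24 in the injured MTZ library, 0.61 in the uninjured MTZ library, 0.36 in the injured library and 1.19 in the uninjured library (SD 0.43, n = 4). With other fabp7a cells matched on depth it was 0.99, with 11 of 18 tested genes higher and 0 lower, and at 2000 UMIs per cell it was 0.84, with 6 of 18 higher and 0 lower. The median was thus above 0 with depth made equal in either way, and fewer single genes passed.

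Among the other lipid genes, 3 of 15 tested fatty acid and lipase genes were higher and 1 was lower. lpl, lipoprotein lipase, was at 77.7 CPM in the cyp26c1/lipg/grm3 cells against 28.0 CPM in the other fabp7a cells of the injured MTZ library, 60.9 against 25.5 CPM in the uninjured MTZ library, 54.9 against 18.4 CPM in the injured library and 72.5 against 19.5 CPM in the uninjured library. The classes did not overlap, and lpl was 2.96-fold higher (log2 difference 1.56 ± 0.19, edgeR adjusted p = 1.74e-06). mgll, monoglyceride lipase, was higher by 0.85 (adjusted p = 0.000463, edgeR) and elovl6, a fatty acid elongase, by 0.68 (adjusted p = 0.00577). fabp11a was lower by -2.29. With depth matched, 12 genes of this list were tested, and 3 (lpl, mgll and cpt1ab) were higher and 0 lower.

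**Figure D3:**
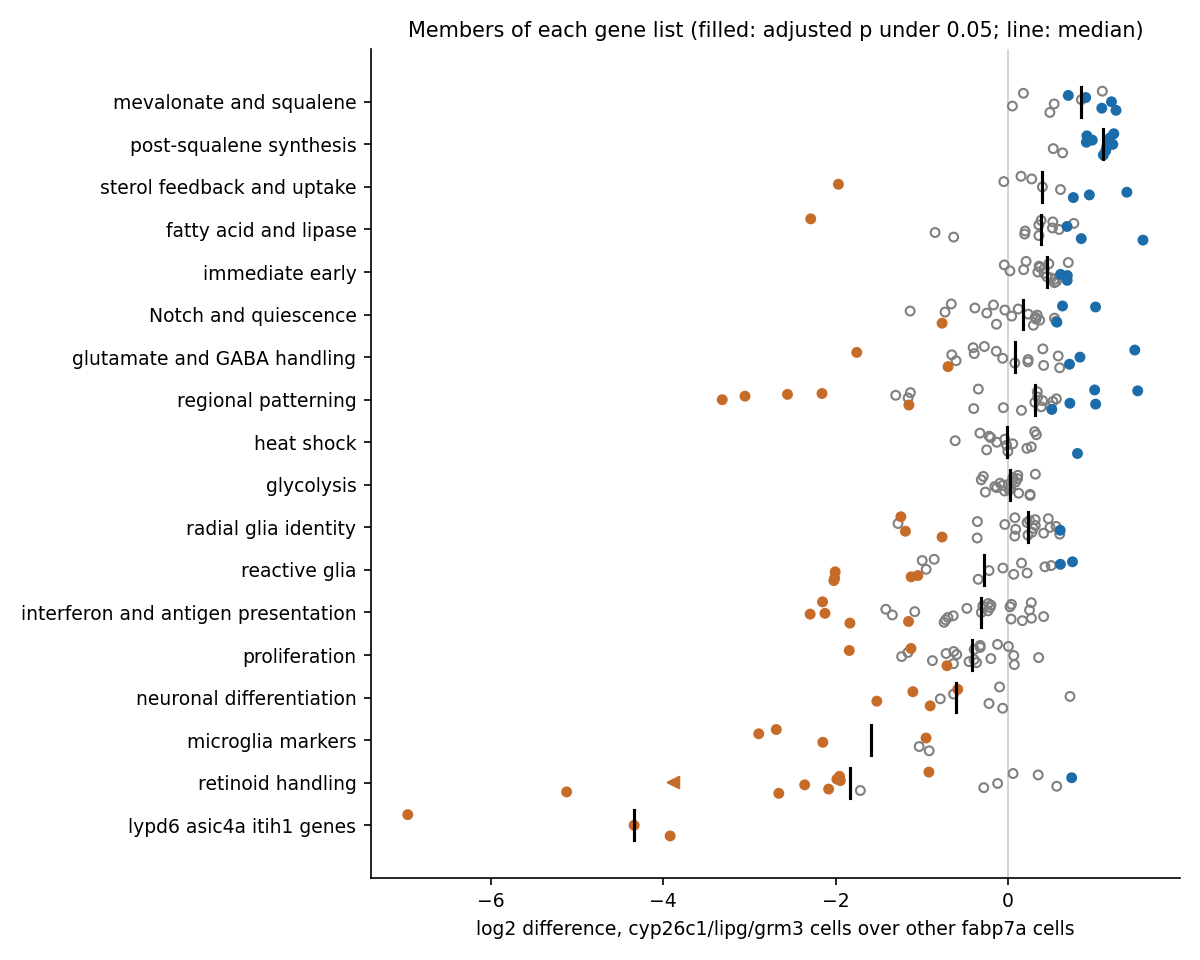
Log2 difference between the cyp26c1/lipg/grm3 cells and the other fabp7a cells for each tested member of 18 gene lists. Filled points passed adjusted p under 0.05 in edgeR, open points did not, black lines are medians, and the triangle (rdh5, 0 UMIs in the cyp26c1/lipg/grm3 cells) is a bound from 3 counts; the 22 sterol synthesis genes lie right of 0 and most retinoid genes left of it.

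Apart from cyp26c1, most of the retinoid-handling genes tested were lower. Of 27 retinoid-handling genes in the files 16 were tested, and 1 was higher and 9 lower (56.2%), against 3.24% of all genes. Genes such as crabp1a and rdh5, given next, entered the test through the UMIs of the other fabp7a cells. The count therefore describes the genes tested and is not a test of the list. crabp1a, a binding protein that carries retinoic acid in the cytoplasm, had 3 UMIs in the 508 cells and 672 in the other fabp7a cells, with 1.59 CPM in the 508 cells against 36.7 CPM in the others of the injured MTZ library, 0.94 against 49.0 CPM in the uninjured MTZ library, 3.23 against 63.4 CPM in the injured library and 0 against 39.5 CPM in the uninjured library. On these counts it was 38.9-fold lower (95% counting interval 13.2 to 189; edgeR adjusted p = 1.09e-09). rdh5, a retinol dehydrogenase, had 0 UMIs against 256. With 3 counts over the class put in for 0, rdh5 was 14.8-fold lower, and by its 95% counting interval at least 11.95-fold. Its UMIs were unevenly spread, with 2.59 CPM in the other fabp7a cells of the injured MTZ library, 2.06 CPM in those of the uninjured MTZ library, 19.8 CPM in those of the injured library and 68.4 CPM in those of the uninjured library. cyp26b1, another retinoic acid hydroxylase, was lower by a log2 difference of -2.66 (adjusted p = 1.77e-05, edgeR), and crabp2b, rdh10a, dhrs3a, dhrs3b, rarab and stra6 were lower by -0.92 to -2.36. raraa, a retinoic acid receptor, was higher by 0.74 (adjusted p = 0.016), and aldh1a3, which makes retinoic acid, was at 0.56 and did not pass (adjusted p = 0.111, edgeR). With depth matched, 8 retinoid genes could be tested and 2 of them, crabp1a and dhrs3b, were lower, and DESeq2 called 4 lower. The median log2 difference of these 8 was -0.22, with 3 above 0 and 5 below, against -1.83 for the 16 genes of the main fit. Retinoid genes with too few UMIs for the test went both ways relative to the UMIs of each class. rbp4 (28 UMIs against 23) and crabp2a (6 against 8) were higher in the cyp26c1/lipg/grm3 cells. aldh1a2 (2 against 84) and lratb.2 (2 against 38) were lower, with no test made.

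The genes lypd6, asic4a and itih1, listed because earlier results of these libraries named them, had few UMIs in the cyp26c1/lipg/grm3 cells: itih1, a hyaluronan-binding serum protein gene, had 1 UMI there against 831 in the other fabp7a cells, a ratio of 144-fold lower (95% counting interval 25.8 to 5701). lypd6 had 3 against 272 UMIs (15.7-fold lower, 5.33 to 76.7) and the acid-sensing channel gene asic4a 3 against 341 (19.7-fold lower, 6.69 to 96.1). All 3 passed the edgeR test, which they entered through the UMIs of the other fabp7a cells. The list came from earlier results of these libraries, so this describes the genes and is not a test of the list. With depth matched, itih1 alone of the 3 could be tested, and it was lower. Of 25 tested regional patterning genes, 5 were higher and 5 lower. gsx2, a homeobox gene of ventral telencephalic progenitors, had 74.5 CPM in the cyp26c1/lipg/grm3 cells against 240 CPM in the other fabp7a cells of the injured MTZ library, 14.1 against 167 CPM in the uninjured MTZ library, 0 against 172 CPM in the injured library and 21.3 against 394 CPM in the uninjured library (log2 difference -3.05, edgeR adjusted p = 1.37e-08). zic1 (-3.32), foxb1a, wnt8b and pax6b were also lower. tfap2c (1.5), dmrta2 (1.02), hopx (1.0), nr2f1a (0.72) and emx2 (0.51), a homeobox gene of dorsal progenitors, were higher. DESeq2 called nr2f1a, tfap2c and hopx higher and zic1 and gsx2 lower, so dmrta2, emx2, foxb1a, wnt8b and pax6b passed in edgeR and not in DESeq2.

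Of the 12 named genes with the largest increases that held in all 4 libraries, lmo7a led. This LIM domain gene had 53.9 CPM in the cyp26c1/lipg/grm3 cells against 24.3 CPM in the other fabp7a cells of the injured MTZ library, 50.6 against 21.0 CPM in the uninjured MTZ library, 132 against 31.5 CPM in the injured library and 102 against 21.8 CPM in the uninjured library. It was 3.31-fold higher (log2 difference 1.73 ± 0.20, edgeR adjusted p = 9.19e-07), and the classes did not overlap. bdnf, a neurotrophin, had 31.7 CPM in the cyp26c1/lipg/grm3 cells against 12.2 CPM in the other fabp7a cells of the injured MTZ library, 12.2 against 5.76 CPM in the uninjured MTZ library, 12.9 against 8.35 CPM in the injured library and 29.9 against 3.55 CPM in the uninjured library (log2 difference 1.55, adjusted p = 0.00416, edgeR). It did not pass without the uninjured library, and rhoub did not either. Others were the extracellular matrix gene tnr (1.54), the transcription factor gene tfap2c (1.5), the GTPase gene rhoub (1.48), the glutamine transporter gene slc38a3b (1.47), caly (1.44), the monocarboxylate transporter family gene slc16a4 (1.43), the kinase gene dyrk4 (1.42), lpl, si:ch211-66e2.3 (1.64) and si:dkey-264d12.5 (1.51). Of these, caly, slc16a4 and si:dkey-264d12.5 did not pass with DESeq2, caly did not with a gate of at least 1 gene, and slc38a3b and lpl did not at 2000 UMIs per cell.

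The 12 largest decreases rested on very few UMIs in the cyp26c1/lipg/grm3 cells, between 0 and 11 a gene. These genes reached the 100 UMIs needed for the test through the other fabp7a cells. The gene with the identifier ENSDARG00000095580 had 7 UMIs against 1662, elfn1b, a synaptic adhesion gene, 8 against 869, and the synaptotagmin gene syt9b 4 against 885. mxra5a, at 0 against 142, was 8.21-fold lower with 3 counts put in for 0, and at least 6.59-fold lower by its 95% counting interval. The beta-arrestin gene arrb1 had 1 against 379 (65.7-fold lower, 95% counting interval 11.7 to 2604), the S100 family gene icn 3 against 1009 (58.3-fold, 19.9 to 283), the growth factor gene fgf8b 1 against 234 (40.6-fold, 7.21 to 1610) and the matricellular gene sparcl1 1 against 174 (30.2-fold, 5.35 to 1199). si:ch73-335m24.2 (4 against 636), si:dkey-183j2.10 (11 against 946), itih1 and crabp1a complete the set.

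Interferon, proliferation and neuronal differentiation genes that passed the test were all lower in the cyp26c1/lipg/grm3 cells. Of 27 tested interferon and antigen presentation genes, 0 were higher and 5 lower (18.5%). isg15, an interferon-induced ubiquitin-like modifier, had 111 CPM in the cyp26c1/lipg/grm3 cells against 348 CPM in the other fabp7a cells of the injured MTZ library, 12.2 against 34.6 CPM in the uninjured MTZ library, 255 against 1055 CPM in the injured library and 8.53 against 57.7 CPM in the uninjured library. It was lower in all 4 libraries (log2 difference -1.84, edgeR adjusted p = 8.63e-08), and rsad2, an antiviral gene, was lower by -2.30 (adjusted p = 4.27e-09). mxb, dhx58 and c7b were also lower, c7b in only 2 of 4 libraries, the injured MTZ and injured ones. Of 18 tested reactive glia genes, 2 were higher, ptn (0.61) among them, and 5 lower (anxa1a, anxa5b, s100a10b, lgals2a and tnc, -1.05 to -2.02). The sum of that list was higher in every library. It was 20406 against 18357 CPM in the injured MTZ and 26222 against 23698 CPM in the uninjured MTZ library. It was 23874 against 17979 CPM in the injured and 22700 against 20854 CPM in the uninjured library. With depth matched, 13 of these genes were tested, and mdka was higher and s100a10b and lgals2a lower. Of 22 tested proliferation genes, 0 were higher and 3 lower, with pcna at -0.71, rrm2 at -1.84 and stmn1a at -1.13. The summed list was not lower in every library. It had 1333 CPM in both classes of the injured MTZ library and 441 against 804 CPM in the uninjured MTZ library. It had 291 against 1142 CPM in the injured library and 687 against 689 CPM in the uninjured library. The genes not tested were plk1 (20 against 50 UMIs), ccnb1 (9 against 24), aurka (8 against 11), aurkb (2 against 72) and bub1 (0 against 1). These counts are out of 2476572 UMIs in the cyp26c1/lipg/grm3 cells and 14276266 in the other fabp7a cells. Relative to these totals plk1, ccnb1 and aurka were higher in the cyp26c1/lipg/grm3 cells and aurkb was lower, with no test made. With depth matched, 7 of 10 tested proliferation genes were lower, among them the replication helicase genes mcm2, mcm3, mcm5 and mcm6, and DESeq2 called rrm2 alone. The share over all genes with depth matched is not given, so the 7 of 10 is not read as a result about the list. Of 10 tested neuronal differentiation genes, 0 were higher and 4 (sox4a, sox11b, stmn1b and hes6) were lower, of which DESeq2 called 0. That list summed to 826 against 779 CPM in the injured MTZ library and 352 against 628 CPM in the uninjured MTZ library. It summed to 317 against 957 CPM in the injured library and 529 against 841 CPM in the uninjured library.

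Calls in other lists are set beside 3.17% of all genes higher and 3.24% lower. The shares were 4.35% higher and 13.0% lower for radial glia identity, and 13.6% and 4.55% for Notch and quiescence. They were 15.8% and 10.5% for glutamate and GABA handling, and 15.8% and 0% for immediate early genes. Of 23 tested radial glia identity genes, mfge8a was higher (0.60) and s100b (-0.77), aqp1a.1 (-1.19) and ndrg3a (-1.24) were lower, while gfap was at -0.36 (edgeR adjusted p = 0.24). Of 22 tested Notch and quiescence genes, 3 were higher and 1 lower, with notch3 at 0.57, the ligand genes jag1b at 1.01 and dla at 0.63, and notch2 at -0.77. With depth matched, dla alone of 18 tested was higher and 0 were lower. Of 19 tested genes of glutamate and GABA handling, slc1a4, grm4 and slc38a3b were higher and the transporter genes slc1a3a (-0.70) and slc6a9 (-1.76) were lower. Of 19 immediate early genes 3 were higher (fosl2, jund and egr1, 0.61 to 0.69). The log2 differences of 18 of the 19 were above 0, with a median of 0.45. Of 15 heat shock genes 1 was higher (hspa5, 0.81), and of 20 glycolysis genes 0 passed in either direction. Among markers of other cells, 4 of 6 tested microglia, 2 of 5 oligodendrocyte (olig2 and pdgfra) and 1 of 11 ciliated cell genes were lower and 0 were higher. The microglia markers held 40 to 141 UMIs a library in the cyp26c1/lipg/grm3 cells, against 337 to 1108 in the other fabp7a cells. They thus entered the test largely through the latter, and these counts are not a test of the lists. With depth matched, 1 microglia marker (aif1l, lower) and 1 oligodendrocyte marker (not called) could be tested. Of 6 tested mural cell and fibroblast markers, notch3 and col5a1 (0.83) were higher and dcn (-2.26) and pdgfra (-1.88) lower, and of 5 tested mature neuron markers, vamp2 was higher and cplx2 lower. The part of such cells in either class was not tested.

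The 2 main pairs of gate genes were compared with each other: 155 cells with lipg and cyp26c1 but no grm3 against 275 cells with lipg and grm3 but no cyp26c1. This comparison was added after the differing shares of the pairs had been seen. Of 2716 genes tested with the same edgeR fit, 27 were higher in the cyp26c1 cells (0.994%) and 19 lower (0.7%). Of the sterol synthesis genes, 0 of 13 tested passed in either direction, with a median of -0.01, and hmgcs1 was at 0.11 ± 0.23 (SE; edgeR adjusted p = 0.992).

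efnb2a, an ephrin ligand gene, had 285 CPM in the cyp26c1 cells against 57.5 CPM in the grm3 cells of the injured MTZ library, 242 against 57.5 CPM in the uninjured MTZ library, 217 against 5.78 CPM in the injured library and 408 against 79.1 CPM in the uninjured library. The pairs did not overlap, and the log2 difference was 2.42 ± 0.25 (SE; edgeR adjusted p = 1.86e-05). The zinc finger gene sp8a (1.62), the glutamate receptor subunit gene gria1a (2.19), tcima (2.0), the transcription factor genes sox11a (1.40) and emx3 (1.09) and the midkine genes mdka (0.46) and mdkb (0.48) were also higher in the cyp26c1 cells, and so was lmo7a (1.37). Unlike lmo7a, efnb2a (-2.02) and sp8a (-1.38) were lower in all cyp26c1/lipg/grm3 cells together than in the other fabp7a cells. slc6a1b, a GABA transporter gene, had 44.2 CPM in the cyp26c1 cells against 335 CPM in the grm3 cells of the injured MTZ library, 70.6 against 328 CPM in the uninjured MTZ library, 13.5 against 121 CPM in the injured library and 85.2 against 757 CPM in the uninjured library. It was lower in the cyp26c1 cells (-2.75 ± 0.23, edgeR adjusted p = 1.4e-06), as were the nuclear receptor gene nr2f2 (-2.68), the Notch target her4.3 (-1.48), s100a10b (-1.90), fgfr3 (-1.06) and sox3 (-0.80). Another Notch target, her12, was higher in the cyp26c1 cells (1.78, edgeR adjusted p = 0.0308), but had too few UMIs to be tested once any 1 library was left out. mdka and mdkb passed only without the injured library. fgfr3 and sox3 did not pass without either MTZ library, and emx3 and s100a10b did not without the uninjured MTZ library. sox11a and lmo7a could not be tested without the uninjured MTZ library, and lmo7a did not pass without the injured MTZ library. gria1a could be tested only without the injured library, and passed there. Without the uninjured MTZ library 10 genes passed, without the uninjured library 30, and 3 passed at 2000 UMIs per cell.

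**Figure D4:**
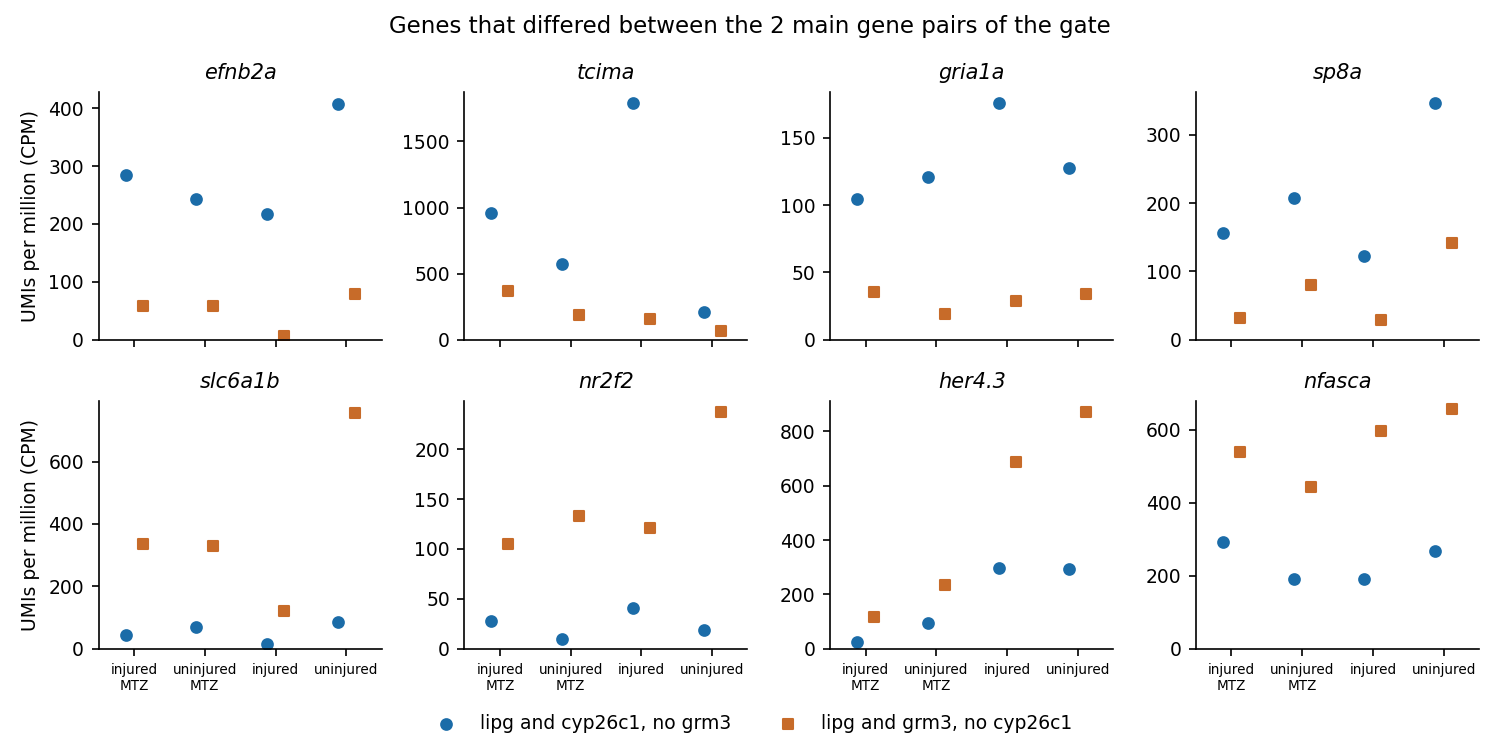
Level, in CPM, of 8 genes in cells with lipg and cyp26c1 but no grm3 (circles) and in cells with lipg and grm3 but no cyp26c1 (squares), by library; a point is 1 sum over cells. efnb2a, tcima, gria1a and sp8a were higher in the cyp26c1 cells of every library, slc6a1b, nr2f2, her4.3 and nfasca in the grm3 cells.

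Within the cyp26c1/lipg/grm3 cells, sterol synthesis transcripts were lower in each injured library. The 23 genes summed to 1776 CPM in the injured MTZ library against 3395 CPM in the uninjured MTZ library. Without MTZ the sum was 827 CPM after injury against 4122 CPM in the uninjured library. The other fabp7a cells were lower after injury too, with 758 against 2136 CPM with MTZ and 574 against 1824 CPM without. Genes were compared where the 2 libraries together held at least 50 UMIs, and counted where the ratio passed 2-fold and its interval left out equality. Each ratio compares 1 library with 1 library, and the injured libraries were not tested together against the uninjured ones.

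Without MTZ, 72 of 2084 genes were past 2-fold higher (3.45%) and 110 lower (5.28%) in the cyp26c1/lipg/grm3 cells of the injured library. Scaled by TMM the split was 86 higher and 86 lower, since that scaling put the median log2 ratio over all genes at 0.01, against -0.10 by CPM. The sterol genes that reached 50 UMIs in this pair lay below that median by either scaling, at a median of -2.14 by TMM and -2.25 by CPM. With MTZ, 239 of 4004 genes were higher (5.97%) and 159 lower (3.97%). hmgcs1 had 16 UMIs (51.7 CPM) in the injured library and 279 UMIs (595 CPM) in the uninjured library, a log2 ratio of -3.53 (-4.35 to -2.80). With MTZ it had 271 CPM in the injured MTZ library and 435 CPM in the uninjured MTZ library, a log2 ratio of -0.68 (-0.94 to -0.43). The ratio was nearer 0 with MTZ, and the difference between these 2 ratios was not tested. cyp51 had log2 ratios of -2.58 (-3.30 to -1.93) without MTZ and -1.11 (-1.51 to -0.72) with MTZ, and sc5d of -2.33 (-3.08 to -1.65) and -1.74 (-2.14 to -1.36). Of the 23 sterol genes, 12 reached 50 UMIs without MTZ and all 12 were past 2-fold lower; 16 reached it with MTZ and 7 were. The genes that reached the limit are those that were abundant in the uninjured libraries, so these counts and the sterol medians above are no summary of the list.

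**Figure D5:**
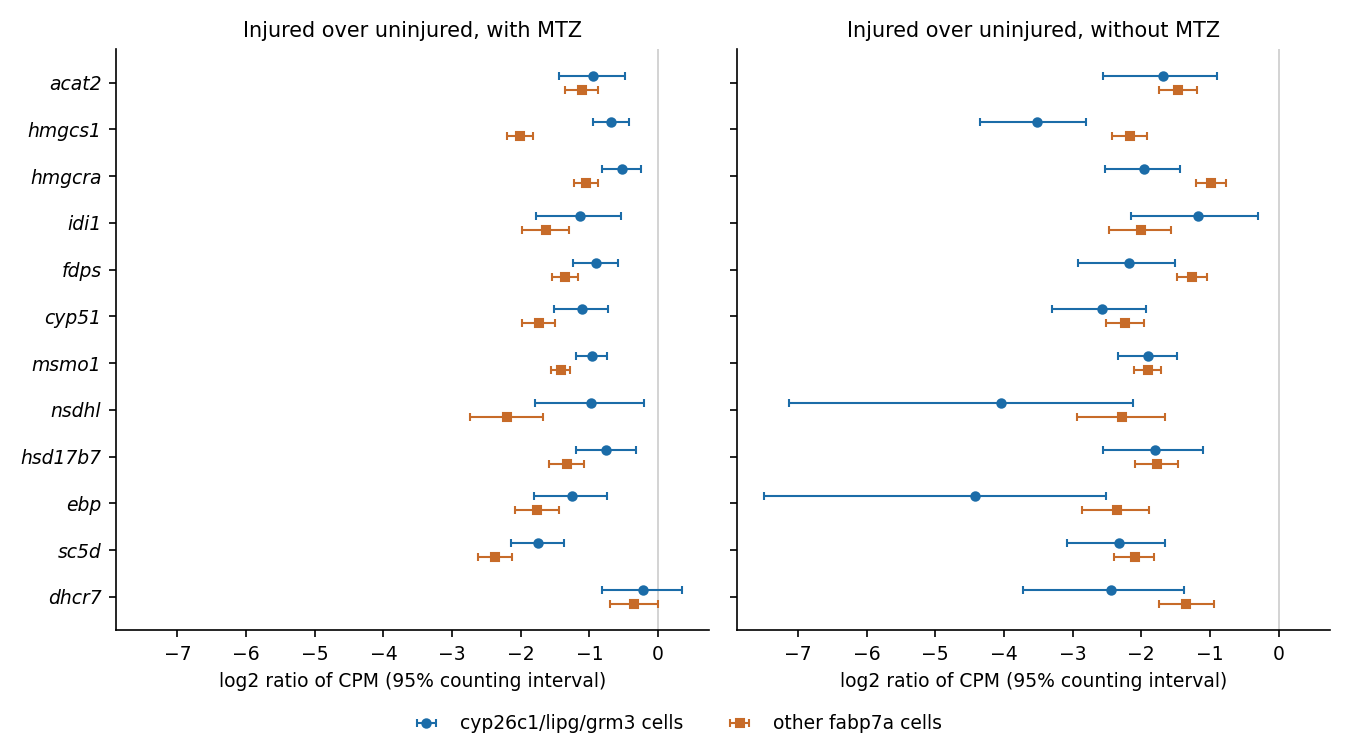
Log2 ratio of CPM between the injured and uninjured libraries, with MTZ (left) and without (right), for the 12 sterol synthesis genes that reached 50 UMIs in the cyp26c1/lipg/grm3 cells of both pairs, in those cells (circles) and in the other fabp7a cells (squares). Bars are 95% counting intervals; hmgcs1 stood at -0.68 with MTZ and -3.53 without in the cyp26c1/lipg/grm3 cells.

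Whether injury moved a gene by another amount in these cells than in the other fabp7a cells was tested with a class by injury term over all 8 sums. edgeR's quasi-likelihood test called 12 of 9463 genes (0.127%), and none of the 22 sterol genes. hmgcs1 had a term of 0.22 ± 0.37 (SE; adjusted p = 1, edgeR) and cyp51 of 0.14 ± 0.34 (adjusted p = 1). The term takes both pairs of libraries together, and the pairs went opposite ways. The median class difference of the 22 sterol genes was 0.36 in the injured against 1.19 in the uninjured library. With MTZ it was 1.24 in the injured MTZ against 0.61 in the uninjured MTZ library. A term near 0 therefore does not show that injury acted alike in both classes. tuba1a, a tubulin gene, had 66.6 CPM in the cyp26c1/lipg/grm3 cells against 124 CPM in the other fabp7a cells of the injured MTZ library, 62.8 against 58.0 CPM in the uninjured MTZ library, 93.7 against 297 CPM in the injured library and 164 against 131 CPM in the uninjured library. It was lower than in other fabp7a cells only in the injured libraries (-1.53 ± 0.35, edgeR adjusted p = 0.037), and it did not pass with depth matched or without the injured or the uninjured library. DESeq2 called 0 genes at adjusted p under 0.05, with 49 at unadjusted p under 0.05, against 335 in edgeR.

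Several interferon genes were higher in both injured libraries, and several heat shock genes in the injured library without MTZ. Over all genes compared, 5.97% were past 2-fold higher with MTZ and 3.45% without. Of 14 heat shock genes compared in each pair, 1 was past 2-fold higher with MTZ and 9 without, and 0 were lower. The 1 of 14 with MTZ was near the share over all genes. Of 10 interferon and antigen presentation genes compared in each pair, 6 were higher with MTZ and 5 without, and 0 were lower. bag3, a chaperone partner gene, had 534 CPM in the cyp26c1/lipg/grm3 cells of the injured MTZ library against 105 CPM in those of the uninjured MTZ library, a log2 ratio of 2.35 (2.04 to 2.67). It had 1237 CPM in the injured library against 111 CPM in the uninjured library, a log2 ratio of 3.48 (3.06 to 3.93), where the other fabp7a cells had 510 against 139 CPM. hsp70l (1.95), hsp90aa1.2 (1.61) and hsp70.3 (1.40) were higher without MTZ by these log2 ratios. The 18 heat shock genes summed to 13800 CPM in the injured MTZ library against 10380 CPM in the uninjured MTZ library. Without MTZ the sum was 48129 CPM after injury against 18546 CPM in the uninjured library. The injured library thus stood apart in these transcripts, and their part in its other ratios was not tested.

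isg15 was higher in the injured libraries of both pairs, by log2 ratios of 3.19 (2.32 to 4.17) with MTZ and 4.90 (3.49 to 6.81) without. The antigen presentation gene b2m was higher by 1.31 with MTZ and 1.36 without, stat2 by 1.71 and 1.85, and mhc1uba by 1.44 and 3.34. The cholesterol efflux transporter gene abca1a was higher in both pairs too: it had 114 CPM in the injured MTZ library against 26.2 CPM in the uninjured MTZ library, and 171 CPM in the injured library against 38.4 CPM in the uninjured library. clu, an apolipoprotein gene, had log2 ratios of 2.32 with MTZ and 3.10 without, and 69.7% of its UMIs in the injured library came from 1 cell. With MTZ, ifi46 (2.73), ifi45 (2.09), si:ch211-132p1.3 (2.43), rnd1b (2.03) and the cytokine feedback gene socs3b (1.84) were the other named increases. Without MTZ they were rnd1b (2.1) and mvp (1.99).

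The named decreases without MTZ were 4 sterol genes (cyp51, sc5d, msmo1 at -1.90 and hmgcra at -1.97), the secretory chaperone gene scg5 (-1.85) and sp8a (-1.83). With MTZ they were zgc:158463 (-2.68), FO704813.1 (-3.24), the neurotrophin receptor gene ntrk2a (-2.32), gpr37l1b (-1.88), the organic anion transporter gene slco1f3 (-2.97) and zgc:153704 (-1.51). ntrk2a had 82.4 CPM in the injured MTZ library against 412 CPM in the uninjured MTZ library. Of 17 Notch and quiescence genes compared with MTZ, 4 were past 2-fold lower and 0 higher: her4.4 had 425 CPM in the injured MTZ library against 1057 CPM in the uninjured MTZ library, her4.3 74.5 against 192 CPM and hey1 34.9 against 97.4 CPM, beside id1. Of 16 compared without MTZ, id3 and dla were lower and 0 were higher. In the other fabp7a cells with MTZ, 4 of 21 were lower, her4.1, her4.2, her4.3 and her4.4. The proliferation gene pcna had 206 CPM in the injured MTZ library against 47.8 CPM in the uninjured MTZ library, and 45.2 CPM in the injured library against 96.0 CPM in the uninjured library, so it was higher with injury in the MTZ pair and lower in the other, a difference that was not tested.

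Set against the same injury state without MTZ, the cyp26c1/lipg/grm3 cells of the uninjured MTZ library had 166 of 3732 genes past 2-fold higher (4.45%) and 179 lower (4.8%). The thioredoxin gene txn had 103 UMIs (96.5 CPM) in the uninjured MTZ library and 2 UMIs (4.27 CPM) in the uninjured library, a log2 ratio of 4.50 (2.61 to 7.56). zgc:153704 (1.80) and rtn1b (2.01) were also higher, and the fatty acid transporter gene slc27a1b (-2.59), nat16 (-2.36) and ier2a (-1.95) lower. Of 18 immediate early genes compared, 10 were past 2-fold lower and 0 higher, with egr1 at 1211 CPM in the uninjured MTZ library against 3386 CPM in the uninjured library. In the injured MTZ library, 182 of 2524 genes were past 2-fold higher (7.21%) and 69 lower (2.73%) than in the injured library. By TMM these were 129 and 107, with a median log2 ratio over all genes of 0.19 by CPM and 0.03 by TMM. hsp70.1 (-3.32), hsp70l (-2.27) and hsp70.2 (-2.19) were lower and spry4 (1.77), rtn1b (1.77) and prdx1 (1.69) higher. hmgcs1 had 271 CPM in the injured MTZ library against 51.7 CPM in the injured library, a log2 ratio of 2.39 (1.65 to 3.23). The median log2 ratio of the sterol genes compared there was smaller, 0.81 by CPM and 0.66 by TMM.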

How the data were processed

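Cells were sorted for dTomato, and 10x Chromium 3' v3 libraries were made, per the labels' protocols. The authors deposited raw UMI counts for each gene in each barcode, on GRCz11. The submitters' processing notes name Cell Ranger 3.1.0 and the matrix headers cellranger 4.0.0, so the version is uncertain. Annotation release and cell-calling settings are not given in the sources used here. No genome or sequence table was used.

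The members, gene lists and comparisons were chosen with earlier results of these data known. Features (25107) that shared a symbol (518 symbols) were summed, which left 24435. UMIs were summed per library and class, and genes with at least 100 UMIs over the 8 sums were tested by edgeR 4.0.16 (TMM, quasi-likelihood, library as block, 3 residual degrees of freedom; 2 for the class by injury term, in R 4.3.3). The 4 libraries are 4 conditions, so the spread holds differences between conditions. Library ratios used CPM, exact conditional binomial 95% intervals, and a floor of 3 counts where a sum was 0.

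Named genes had adjusted p under 0.05, 1 sign in all 4 libraries and no cell with over 10% of the UMIs of the higher class (12 in each direction). For ratios they had UMIs in at least 10 cells of the higher library, no cell with over 10% of them, and the interval bound farthest from 0 (6 in each direction for injury, 3 for MTZ). For the class by injury term, they were the 5 lowest adjusted p in each direction. List members were named besides; some that were counted are not reported here by name. Scrublet (scanpy 1.11.5) marked the top 0.8% of cells per 1000 barcodes (51 cells, 9 of them members), which were kept except in an alternative. Alternatives were DESeq2 1.42.0, thinning, matching on depth within 10%, other gates and filters, and leaving out each library; the gene pair comparison was added after seeing the data.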

Additional observations from a re-analysis of the deposited data

Results flagged for a closer look

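For 12 genes the difference between cyp26c1/lipg/grm3 cells and other fabp7a cells depended on injury by edgeR's quasi-likelihood test of that term (Benjamini-Hochberg adjusted p under 0.05). Of these, 9 were flagged. The term is the log2 difference in injured minus that in uninjured libraries, over 2 libraries each. It was above 0 for the Notch target her12 (3.05, adjusted p = 1.33e-05), fabp7b (4.24), clu (2.05), wu:fj16a03 (6.13) and tppp3 (9.33). It was below 0 for nppc (-5.16, adjusted p = 1.43e-11), cxcl8a (-4.27), ccn2a (-1.77) and tuba1a (-1.53). The 12 genes called also held si:ch73-21g5.7, zgc:110425 and zgc:114046.

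Several of these rested on few cells. In the injured library, tppp3 UMIs came from 1 cyp26c1/lipg/grm3 cell, and in the injured MTZ library all wu:fj16a03 UMIs came from 1 cell. her12 UMIs came from 4 cells of the injured library, with 76% in 1 of them, and 69.7% of clu UMIs there came from 1 of 16 cells. fabp7b had 22 UMIs in 3 cyp26c1/lipg/grm3 cells of the injured MTZ library, 90.9% of them in 1 cell. cxcl8a had 25 UMIs in 7 such cells of the uninjured MTZ library, 72% of them in 1 cell. nppc had 27.0 CPM in the cyp26c1/lipg/grm3 cells against 91.5 CPM in the other fabp7a cells of the injured MTZ library, 88.1 against 32.9 CPM in the uninjured MTZ library, 6.46 against 571 CPM in the injured library and 42.7 against 8.44 CPM in the uninjured library. Its level in the cyp26c1/lipg/grm3 cells rested on few cells too. Of its 94 UMIs in the uninjured MTZ library 57.4% came from 1 of 11 cells. In the uninjured library 80% of 20 UMIs came from 1 of 5 cells. The injured MTZ library had 17 UMIs in 6 cells and the injured library 2 UMIs in 2 cells. tuba1a was found in 20 cells of the injured library, with 13.8% of UMIs in 1 of them. DESeq2 called 0 of the 9. Leaving out each library in turn, nppc alone of the 9 passed with the same sign every time (-8.10 without the injured MTZ library to -3.54 without the injured one). her12 did not pass without the injured MTZ library, fabp7b without either MTZ library, and clu, tppp3 and cxcl8a without the injured or the uninjured MTZ library. ccn2a did not pass without the uninjured, injured or injured MTZ library, tuba1a without the uninjured or injured one, and wu:fj16a03 turned to -6.06 without the injured MTZ one.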

How the results depend on the processing

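With DESeq2, 176 genes were higher and 160 lower in cyp26c1/lipg/grm3 cells than in other fabp7a cells. With no filter on low counts they were 194 and 521, with depth matched 139 and 154, and at 2000 UMIs per cell 45 and 100. A gate of at least 1 gene gave 569 and 483, a gate of all 3 genes 13 and 166, and other fabp7a cells with no gate UMI 494 higher. Leaving out each library in turn gave 113 to 268 higher and 206 to 291 lower. The sterol median was 1.48 with a gate of at least 1 gene, 0.41 with all 3 genes (57 cells) and 1.79 against cells with no gate UMI, and 0.84 to 1.07 without each library. The class by injury term gave 0 genes with DESeq2, 4 with depth matched and 12 to 18 without each library. At 1000 UMIs per cell the gate was met by 0.402% in the injured MTZ, 7.27% in the uninjured MTZ, 1.08% in the injured and 3.69% in the uninjured library. At 2000 UMIs these shares were 2.89%, 16.7%, 2.95% and 9.44%. A stricter cell filter (800 genes, 10% mitochondrial UMIs) gave 9.64%, 31.5%, 7.58% and 14.9%. Genes past 2-fold in the injured library numbered 43 at 2000 UMIs per cell, 426 with a minimum of 20 UMIs and 82 with 100, against 182, and with MTZ 131, 757 and 196, against 398. The cyp26c1 and grm3 cells differed in 3 genes at 2000 UMIs per cell, against 46, and in 10 to 54 without each library. The class comparison is paired by library in every fit. Across conditions no paired analysis was made, since each condition is 1 library with no replicate number.

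Single genes changed sign mainly under the gate of all 3 genes, with log2 differences of -0.22 for si:dkey-264d12.5, -0.0849 for mvk, -0.0435 for pmvk, -0.0239 for idi1, -0.0797 for fdps, -0.56 for ggps1, -0.0399 for msmo1 and -0.73 for dhcr7. hmgcrb, at 0.05, turned to -0.0114 with DESeq2, -0.0562 with no filter and -0.048 with depth matched, and was between -0.13 and 0.18 without each library, below 0 without the uninjured or the uninjured MTZ one. wu:fj16a03 turned to -6.06 without the injured MTZ library. The cause of these changes was not tested. With 309629 UMIs in the 57 members of the injured library, 2084 genes reached 50 UMIs in its pair, and 4004 did in the MTZ pair.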
